A study of Mus musculus with 78 samples.

Results

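A set of 8 genes of oxidative drug metabolism was followed across mouse kidneys from 3 diets and 2 tetrachloroethylene regimens: the cytochromes P450 Cyp2e1 and Cyp2j5, the flavin monooxygenases Fmo1, Fmo2, Fmo4 and Fmo5, and the electron carriers Por and Cyb5a. They were taken from the count tables by gene symbol, and all 8 were found among 24499 genes. Cyp2e1 had the largest called difference between diets among the members in vehicle mice, being 1.70-fold higher on the high-fat than on the low-fat diet in the vehicle mice of the repeated regimen. Fmo5 and Cyb5a were the members that fell with tetrachloroethylene, Fmo5 to about 0.646 and Cyb5a to about 0.822 of the vehicle level as a mean over the diets after repeated dosing. Cyp2j5, Fmo2 and Por passed the test in none of 25 comparisons, although Cyp2j5 did under some alternative settings.

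The study measured messenger RNA by stranded sequencing in whole pulverized kidneys of male C57BL/6J mice, whose age is not given in the sources used here. All mice ate a study diet for 8 weeks: a low-fat diet of 4% fat (LFD), a high-fat diet of 31% fat (HFD), or a diet lacking methionine, choline and folate (MCD). Tetrachloroethylene (PERC), a chlorinated solvent, was given at 300 mg/kg per day in an emulsifier, Alkamuls-EL620, at 5% in saline, either as 1 dose with kidneys taken at 24 h (Single) or as 5 daily doses with kidneys taken 4 h after the last (Repeated). Each regimen had vehicle mice, but the time of death of the vehicle mice of the Single regimen is not given in the sources used here. The title of the series sets fatty liver apart from steatohepatitis as a factor in the kidney effects of PERC, which makes the PERC effect within each diet and its difference between diets the comparisons of interest.

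After 5 libraries of 2267 to 22029 counts were left out, 72 libraries in 12 groups remained. In the Single regimen, LFD had 5 vehicle and 4 PERC mice, HFD had 4 and 5, MCD had 3 and 4, and the libraries had 9047579 to 42022166 counts in genes. In the Repeated regimen, LFD had 7 vehicle and 9 PERC mice, HFD had 8 and 8, and MCD had 7 and 8, with 8556278 to 28508827 counts. The Single libraries came from lanes 1 to 3 and the Repeated libraries from lanes 4 to 8, so regimen and lane cannot be told apart. The library labelled LFD Repeated PERC replicate 4 stood apart: its Cyp4a14, a fatty acid hydroxylase that PERC raised, was at a log2 level of 6.92, against 9.80 to 12.85 in the other 8 LFD PERC libraries and 5.83 to 7.51 in the 7 vehicle libraries. The label of this library was kept, and whether the label is right was not tested. Member results that the library enters and that passed the test with or without it are given both ways. Levels are in CPM, counts scaled to a library of 1000000 and adjusted for library composition. Kidney identity held in all groups, with 12 proximal tubule markers summing to 16660 to 30470 CPM. The 10 hepatocyte markers summed to 9.01 to 122.7 CPM. Of them 8 had a median below 1 CPM, and Alb had a median of 17.1 and Apoa2 of 3.42. The 7 adrenal cortex markers summed to 4.07 to 9.97 CPM. Of them 6 had a median below 1 CPM, with Cyp11b1 at 0 in 72 libraries, and Star had a median of 6.72. Adipocyte markers, 11 genes, summed to 33.6 to 502 CPM and moved with several groups; their values are given beside the results they move with. In whole kidney, fewer cells of a type and less RNA per cell cannot be told apart.

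P450 enzymes of the endoplasmic reticulum insert oxygen into drugs, solvents and lipids and depend on electrons that the reductase Por passes from NADPH, with the heme protein cytochrome b5, encoded by Cyb5a, supplying electrons to some of them. Flavin monooxygenases oxidise nitrogen and sulfur atoms of small molecules, take their electrons from NADPH without Por, and include enzymes that act on sulfur-bearing cysteine conjugates. PERC is known to be metabolised by P450 oxidation and by glutathione conjugation, and the conjugates are processed in the proximal tubule. Cyp2e1 is known for oxidising ethanol, acetone and small chlorinated solvents, and in the mouse kidney it is known to be higher in males and to depend on androgen. Cyp2j5 is a kidney P450 that epoxidises arachidonic acid.

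The 250 bases before the RefSeq start of Cyp2e1 (GRCm38.p6, chr7:140763569-140763818, plus strand) and of Cyp2j5 (chr4:96664120-96664369, minus strand) are shown because these 2 were the most abundant members per length and, of the 2, only Cyp2e1 passed a test between diets. Capitals mark matches to TATAAA, the core of a TATA box, and to AGGTCA, a half-site of nuclear receptors.
Cyp2e1: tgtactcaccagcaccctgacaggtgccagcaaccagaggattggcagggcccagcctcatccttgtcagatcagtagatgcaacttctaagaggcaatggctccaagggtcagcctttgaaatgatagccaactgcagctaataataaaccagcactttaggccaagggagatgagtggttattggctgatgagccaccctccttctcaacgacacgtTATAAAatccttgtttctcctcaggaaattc
Cyp2j5: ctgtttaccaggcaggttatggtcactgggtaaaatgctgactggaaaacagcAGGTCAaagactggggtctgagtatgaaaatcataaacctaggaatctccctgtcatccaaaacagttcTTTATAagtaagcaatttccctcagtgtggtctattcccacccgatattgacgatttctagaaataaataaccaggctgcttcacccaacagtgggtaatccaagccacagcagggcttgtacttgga
In Cyp2e1, TATAAA began 31 bases before the RefSeq start on the strand of the gene. In Cyp2j5, AGGTCA began 197 bases before the start and TATAAA lay nearer to it on the opposite strand, printed here as TTTATA. Both strands of each window were searched for these 2 motifs, and the matches shown do not overlap. A half-site of the transcription factor HNF1 (GTTAAT), the core of the antioxidant response element and a steroid receptor half-site were also searched for. They matched in neither window. Of 27025 genes with RefSeq windows of the same length, 14.3% held TATAAA and 15.8% held AGGTCA in at least 1 window. GENCODE places the start of Cyp2e1 80 bases and that of Cyp2j5 35 bases before the RefSeq start, inside these windows.

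The 8 members spanned a wide range of levels. Per kilobase of exon, the median over 72 libraries was 1051 CPM for Cyp2j5 and 969 CPM for Cyp2e1, the 2 P450s. It was 283 for Cyb5a, 163 for Fmo1, 99.7 for Fmo2, 70.8 for Por, 33.8 for Fmo5 and 11.9 for Fmo4. The ranges over libraries of Cyp2j5, 643 to 1421 CPM per kilobase, and of Cyp2e1, 565 to 1519, overlapped, so their order was not fixed: in the LFD vehicle mice of the Repeated regimen the means were 1017 and 687, and in the HFD PERC mice 1106 and 1244. Fmo1, Fmo2 and Fmo4 lie near each other on the minus strand of chromosome 1, with Fmo4 at chr1:162793188-162813972, Fmo1 at chr1:162829561-162866610 and Fmo2 at chr1:162874317-162898726 (GENCODE vM21, GRCm38). Fmo5 lies apart at chr3:97628804-97655282. Cyp2e1 lies at chr7:140763739-140774987, Cyp2j5 at chr4:96628773-96664154, Por at chr5:135670033-135735326 and Cyb5a at chr18:84838704-84879871. Por is overlapped on the other strand by the pseudogene Gm16061 and the noncoding Gm43091, and Cyb5a by an antisense gene, Gm16146. The strand setting of the counting is not given in the sources used here, and reads of these overlapping pairs may not be told apart.

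Cyp2e1 was higher on HFD than on LFD in vehicle mice of both regimens. In the Single regimen, the 5 LFD vehicle kidneys held 1226, 1280, 1637, 1368 and 1379 CPM of Cyp2e1, and the 4 HFD vehicle kidneys held 1899, 1996, 2465 and 2413. Every HFD kidney was above every LFD kidney. The log2 fold change was 0.67 (SE 0.16, adjusted p = 0.0253, edgeR), and Cyp2e1 was the only 1 of 8 members called, where 1.64% of 14280 genes were called in either direction. In the Repeated regimen, LFD vehicle kidneys ranged from 1219 to 1792 CPM (median 1443, n = 7) and HFD vehicle kidneys from 2195 to 2751 (median 2473, n = 8), again without overlap. The log2 fold change was 0.77 (SE 0.13, adjusted p = 7.14e-05, edgeR). Here 2 of 8 members were called, Cyp2e1 and Fmo1, against 6.64% of 14614 genes.

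MCD kidneys lay between, and above LFD in the Repeated regimen. The 3 MCD vehicle kidneys of the Single regimen held 1525, 1511 and 2356 CPM of Cyp2e1, of which 1 was above and 2 were within the LFD range. The log2 difference from LFD was 0.39 and did not pass the test, as for all 8 members in a comparison where 0.476% of genes were called. In the Repeated regimen, MCD vehicle kidneys ranged from 1894 to 2302 CPM (median 2103, n = 7), all above the LFD vehicle range. Cyp2e1 rose by 0.52 on the log2 scale (SE 0.13, adjusted p = 0.0168, edgeR) and was the only member of 8 called, against 3.48% of genes. MCD and HFD vehicle kidneys overlapped, and no member was called between them in either regimen, where at most 0.007% of genes were called.

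**Figure D1:**
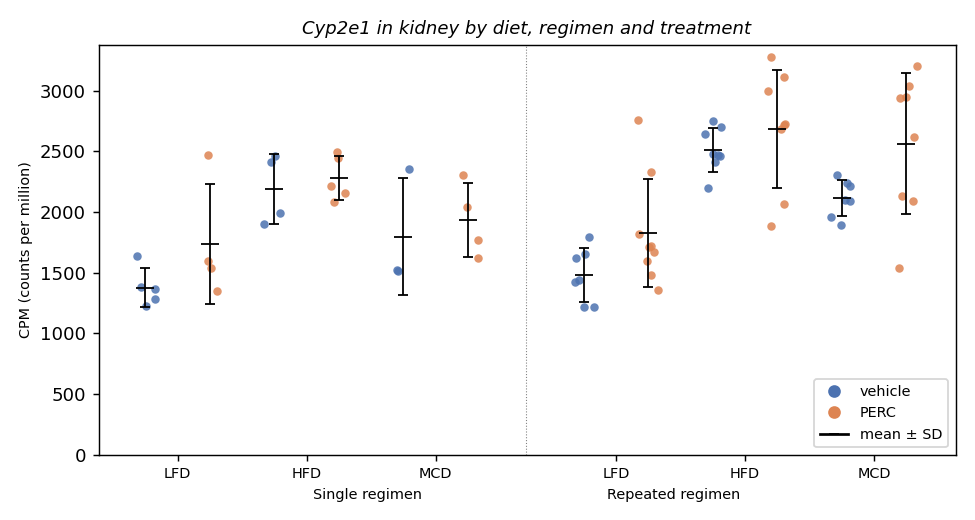
Cyp2e1 level in CPM (linear axis from 0) by diet, regimen and treatment; each point is 1 kidney and the black marks are the mean and SD. In the Repeated regimen the LFD vehicle kidneys sit at 1219 to 1792 CPM and the HFD vehicle kidneys at 2195 to 2751.

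Cyp2e1 was also higher on HFD and MCD than on LFD among PERC-treated mice of the Repeated regimen; HFD and MCD were not tested against each other there. Cyp2e1 ranged from 1356 to 2759 CPM on LFD (median 1714, n = 9), from 1882 to 3278 on HFD (median 2724, n = 8) and from 1542 to 3208 on MCD (median 2779, n = 8). These ranges overlapped, and the spread was wider than in vehicle mice, with coefficients of variation of 18.2% to 24.2% against 7.09% to 14.8%. Relative to LFD, Cyp2e1 was higher by 0.55 on HFD (log2, SE 0.12, adjusted p = 0.00203) and by 0.48 on MCD (SE 0.12, adjusted p = 0.00908, edgeR). Without the LFD library that stood apart the values were 0.51 (adjusted p = 0.00552) and 0.44 (adjusted p = 0.0183). With the 2 compared groups fitted alone, the MCD difference did not pass (adjusted p = 0.112). Called in these 2 comparisons were 1 and 2 of 8 members, against 6.10% and 5.79% of genes. Among PERC mice of the Single regimen, Cyp2e1 differed between HFD and LFD by 0.39 (adjusted p = 0.225) and between MCD and LFD by 0.15 (adjusted p = 0.752), and no member was called, against 2.68% and 0.91% of genes. Without LFD PERC replicate 4 of the Single regimen, at 2467 CPM, the HFD difference of Cyp2e1 was 0.61 (adjusted p = 0.0304).

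Within sequencing lanes, the log2 difference of Cyp2e1 between HFD and LFD was taken as a mean over vehicle and PERC mice, not in vehicle mice alone. It was above 0 in 3 of 3 Single lanes (0.51 to 0.55) and in 5 of 5 Repeated lanes (0.29 to 0.84). Adipocyte markers were also higher in the Repeated vehicle mice. Called higher were 7 of 11 on HFD (median log2 difference of 1.90) and 6 of 11 on MCD (1.93), against 3.86% and 2.11% of all genes. None of 11 was called higher on HFD in the Single regimen (1.05), against 0.875%. In Repeated vehicle mice 4 of 5 intercalated cell markers were called lower on HFD (median -0.42) and on MCD (-0.45), against 2.78% and 1.37%. On HFD 3 of 12 proximal tubule markers were lower and 1 higher (-0.12). Of these markers only those of adipocytes were entered as a covariate. The part of the intercalated cell and proximal tubule markers in the result was not tested. In the Repeated vehicle mice the summed adipocyte level ranged over 46.9 to 123 CPM on LFD, 33.6 to 176 on HFD and 49.3 to 148.1 on MCD. With the mean log2 level of the adipocyte markers as a covariate, the Repeated HFD difference of Cyp2e1 was 0.61 (adjusted p = 0.00998), whereas the Repeated MCD difference was 0.35 (adjusted p = 0.411) and the Single HFD difference 0.58 (adjusted p = 0.0789). The Single HFD call was lost without LFD vehicle replicate 1, 2, 4 or 5 or HFD vehicle replicate 4 or 5, with a highest adjusted p of 0.0995. The Repeated MCD call was lost without LFD vehicle replicate 5 or 6 (highest adjusted p of 0.0563). With the libraries of low depth kept, the Single HFD difference was 0.55 (adjusted p = 0.525).

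Cyp2e1 was also higher with PERC after repeated dosing, by less than between diets. As a mean over the 3 diets it rose by 0.23 on the log2 scale (SE 0.07, adjusted p = 0.0177, edgeR), or 0.24 (adjusted p = 0.00896) without the library that stood apart. It was 1 of 4 members called in that comparison, 2 of them higher and 2 lower, where 24.5% of 14614 genes were called. The PERC and vehicle ranges overlapped on all 3 diets. Above the vehicle range of their diet lay 3 of 9 PERC kidneys on LFD, 3 of 8 on HFD and 5 of 8 on MCD. Below it lay 0, 2 and 1. Lane means gave a PERC difference above 0 in 4 of 5 lanes (-0.02 to 0.29). Adipocyte markers were higher with PERC in the same comparison, in 7 of 11 (median log2 difference of 1.04) against 12.8% of all genes. With the mean log2 level of these markers as a covariate the Cyp2e1 difference was 0.14 (adjusted p = 0.223). Within single diets, the Cyp2e1 difference was 0.31, 0.09 and 0.27 on LFD, HFD and MCD after repeated dosing and 0.33, 0.05 and 0.09 after 1 dose, none passing the test. Without the library that stood apart the Repeated LFD value was 0.35 (adjusted p = 0.0541).

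Cyp2j5, the other P450, passed no test in the fit of all groups, although some alternatives called it. Its level ranged from 1507 to 3332 CPM over 72 libraries. The largest group mean, 2883 ± 289 CPM (SD, n = 8), was in HFD vehicle mice of the Repeated regimen, against 2385 ± 146.8 (n = 7) on LFD. That log2 difference of 0.28 had an adjusted p of 0.131, and the ranges of 2461 to 3332 and 2266 to 2633 overlapped. It passed with lane as a covariate (0.30, adjusted p = 0.0382) and with the 2 compared groups fitted alone (0.27, adjusted p = 0.00902). Lane means of HFD minus LFD, taken over vehicle and PERC mice together, were above 0 in 3 of 3 and 5 of 5 lanes. Among Single PERC mice the difference was 0.46 (adjusted p = 0.0864), which passed without LFD PERC replicate 5 (0.61, adjusted p = 0.0171), with lane as a covariate (0.49, adjusted p = 0.0112) and with DESeq2 (0.46, adjusted p = 0.0346). Among Repeated PERC mice it was 0.26 (adjusted p = 0.146), and 0.34 (adjusted p = 0.0144) without HFD PERC replicate 6, whose Cyp2j5 was 1549 CPM.

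Fmo5 was lower after PERC in both regimens. In the Single regimen, LFD vehicle kidneys held 252.9, 207.1, 235.1, 230.6 and 271.3 CPM of Fmo5, and LFD PERC kidneys held 109.1, 188.7, 153.1 and 185.2. HFD vehicle kidneys held 189.0, 196.1, 231.2 and 236.0 CPM, and HFD PERC kidneys held 138.6, 151.9, 157.9, 210.8 and 188.0. MCD vehicle kidneys held 234.2, 212.2 and 356.8 CPM, and MCD PERC kidneys held 156.2, 162.0, 172.0 and 165.3. Vehicle and PERC kidneys did not overlap on LFD and MCD and overlapped on HFD. Within each diet the difference did not pass the test, at -0.59 (adjusted p = 0.0839), -0.33 and -0.72 (adjusted p = 0.214), in comparisons where 0.749%, 0.007% and 0.028% of genes were called and none of the 8 members. With lane as a covariate Fmo5 passed on LFD (-0.65, adjusted p = 0.00496) and on MCD (-0.69, adjusted p = 0.0340), and so it did with DESeq2 (adjusted p = 0.0195 and 0.0399). As a mean over the 3 diets Fmo5 fell by 0.55 on the log2 scale (SE 0.09, adjusted p = 0.00181, edgeR), the only member of 8 called, against 1.37% of genes. The LFD difference passed without PERC replicate 3 (-0.68, adjusted p = 0.0388) or replicate 5 (-0.68, adjusted p = 0.0437).

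After repeated dosing, on LFD, Fmo5 ranged from 171.9 to 279.9 CPM in vehicle mice (median 216.9, n = 7) and from 89.1 to 273.3 with PERC (median 125.2, n = 9), where 7 PERC kidneys were below all vehicle kidneys. On HFD the ranges were 176.3 to 267.3 (median 230.6, n = 8) and 76.8 to 188.4 CPM (median 162.2, n = 8). On MCD they were 220.4 to 290.8 (median 266.2, n = 7) and 64.2 to 261.9 CPM (median 158.9, n = 8). The ranges overlapped on each diet, by 2 kidneys with PERC on LFD, 1 on HFD and 2 on MCD. The log2 differences were -0.61 on LFD (SE 0.20, adjusted p = 0.0508), -0.62 on HFD (SE 0.20, adjusted p = 0.0370) and -0.67 on MCD (SE 0.20, adjusted p = 0.0430, edgeR), so Fmo5 fell on HFD and MCD. Members called were 1, 2 and 2 of 8, against 6.91%, 9.18% and 5.10% of genes. Without the LFD library that stood apart, at 225.8 CPM, the LFD difference was -0.71 (adjusted p = 0.0131) and passed. It also passed without LFD PERC replicate 5 (adjusted p = 0.00724) or vehicle replicate 6 (adjusted p = 0.0455), and with lane as a covariate (adjusted p = 0.0325), with DESeq2 (0.0287) and with its size factors (0.0499). Without a filter on low counts the HFD and MCD differences did not pass (adjusted p = 0.0589 and 0.0596), nor did the MCD difference with its 2 groups fitted alone (0.0610).

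As a mean over the diets Fmo5 fell by 0.63 (SE 0.11, adjusted p = 4.03e-05, edgeR) after repeated dosing, and this passed without any 1 of the 47 libraries. It was -0.67 (adjusted p = 1.10e-05) without the LFD library that stood apart and -0.69 (adjusted p = 8.62e-05) with the mean log2 level of the adipocyte markers as a covariate. Within lanes the mean PERC difference was below 0 in 3 of 3 lanes of the Single regimen (-0.70 to -0.33) and 5 of 5 of the Repeated regimen (-1.16 to -0.32). Calls within 1 diet were less stable: the HFD call was kept in 10 of 16 fits that left out 1 library and lost without PERC replicate 1, 6 or 7 or vehicle replicate 1, 5 or 8 (highest adjusted p of 0.109). The MCD call was kept in 3 of 15, those without PERC replicate 1 or 4 or vehicle replicate 4 (highest adjusted p of 0.0982). Proximal tubule markers moved with PERC too. In the Repeated mean over diets, where 11.7% of all genes were called lower and 12.8% higher, 6 of 12 markers were lower and 1 higher (median -0.19). Their part in the result was not tested.

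**Figure D2:**
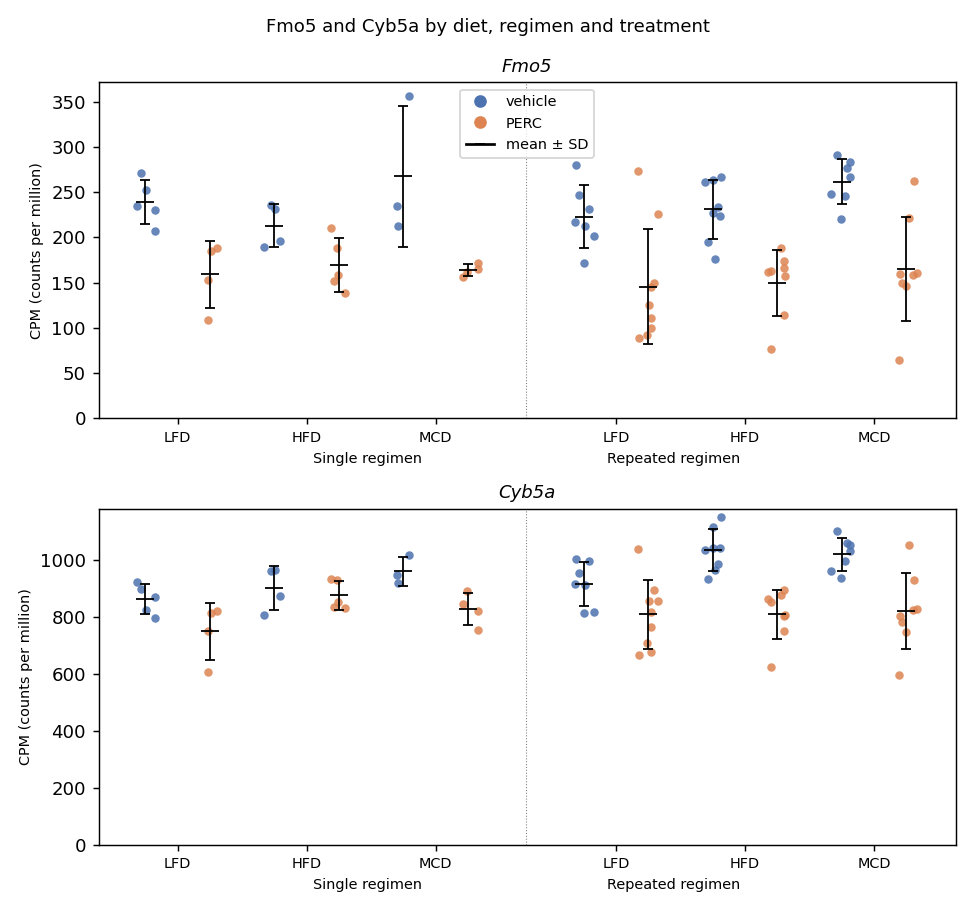
Fmo5 (top) and Cyb5a (bottom) in CPM, linear axes from 0, by diet, regimen and treatment; points are kidneys and black marks the mean and SD. On MCD after 1 dose the PERC kidneys sit at 156.2 to 172.0 CPM of Fmo5, below the vehicle kidneys at 212.2 to 356.8.

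None of the other flavin monooxygenases was called lower with PERC. Fmo1, a form of mouse kidney and liver, was higher on HFD in vehicle mice of the Repeated regimen: LFD kidneys ranged from 915 to 1003 CPM (median 956, n = 7) and HFD kidneys from 1033 to 1315 (median 1212, n = 8). The ranges did not overlap, and Fmo1 rose by 0.33 (log2, SE 0.08, adjusted p = 0.00958, edgeR), a call kept without any 1 of the 15 libraries. With the adipocyte covariate the difference was 0.28 (adjusted p = 0.131). Lane means of HFD minus LFD were taken over vehicle and PERC mice together. They were above 0 in 3 of 3 and 5 of 5 lanes (0.13 to 0.43 in the Repeated regimen). MCD vehicle kidneys ranged from 952 to 1146 CPM, a log2 difference of 0.21 from LFD that did not pass (adjusted p = 0.233) but did with the 2 groups fitted alone (0.20, adjusted p = 0.0162). Among Repeated PERC mice the Fmo1 differences from LFD were 0.22 on HFD (adjusted p = 0.0879) and 0.23 on MCD (adjusted p = 0.0698). The first passed without HFD PERC replicate 6 (adjusted p = 0.0343), and the second without MCD PERC replicate 7 (adjusted p = 0.00688) or LFD PERC replicate 2 (adjusted p = 0.0474), and with DESeq2 (adjusted p = 0.0481). No PERC difference of Fmo1 within a diet passed, with values from -0.12 to 0.15.

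Fmo4, the least abundant member, was higher after repeated PERC on LFD. Vehicle kidneys ranged from 39.9 to 54.5 CPM (median 48.9, n = 7) and PERC kidneys from 43.8 to 70.2 (median 60.9, n = 9), with overlap. Fmo4 rose by 0.34 (log2, SE 0.10, adjusted p = 0.0387, edgeR). Without the library that stood apart, which held 43.8 CPM, the rise was 0.38 (adjusted p = 0.00928). The call was kept in 5 of 16 fits that left out 1 library and was lost without PERC replicate 1, 2, 3, 6, 7 or 8 or vehicle replicate 1, 3, 5, 6 or 7 (highest adjusted p of 0.108). Of the adipocyte markers, 8 of 11 were called higher in this comparison (median of 2.26), against 4.48% of all genes. With the mean log2 level of these markers as a covariate Fmo4 differed by 0.32 (adjusted p = 0.158). With the 2 groups fitted alone it did not pass (adjusted p = 0.0734).

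As a mean over the diets, Fmo4 rose with repeated PERC by 0.20 (SE 0.06, adjusted p = 0.0124), or by 0.21 (adjusted p = 0.00458) without the library that stood apart and by 0.19 (adjusted p = 0.0433) with the adipocyte covariate. Between diets, Fmo4 was lower on MCD than on LFD among Repeated PERC mice, with 30.7 to 53.1 CPM (median 43.4, n = 8) against 43.8 to 70.2. These ranges overlapped, and the fall was 0.45 (log2 value -0.45, SE 0.10, adjusted p = 0.00365, edgeR), or -0.50 (adjusted p = 9.84e-04) without the library that stood apart. On HFD the corresponding difference was -0.26 (adjusted p = 0.130), which passed without that library (-0.31, adjusted p = 0.0498). Fmo2, best known as the lung form, ranged from 372 to 737 CPM and passed no test, with log2 differences from -0.12 to 0.12 over the 6 PERC and 4 vehicle diet comparisons.

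**Figure D3:**
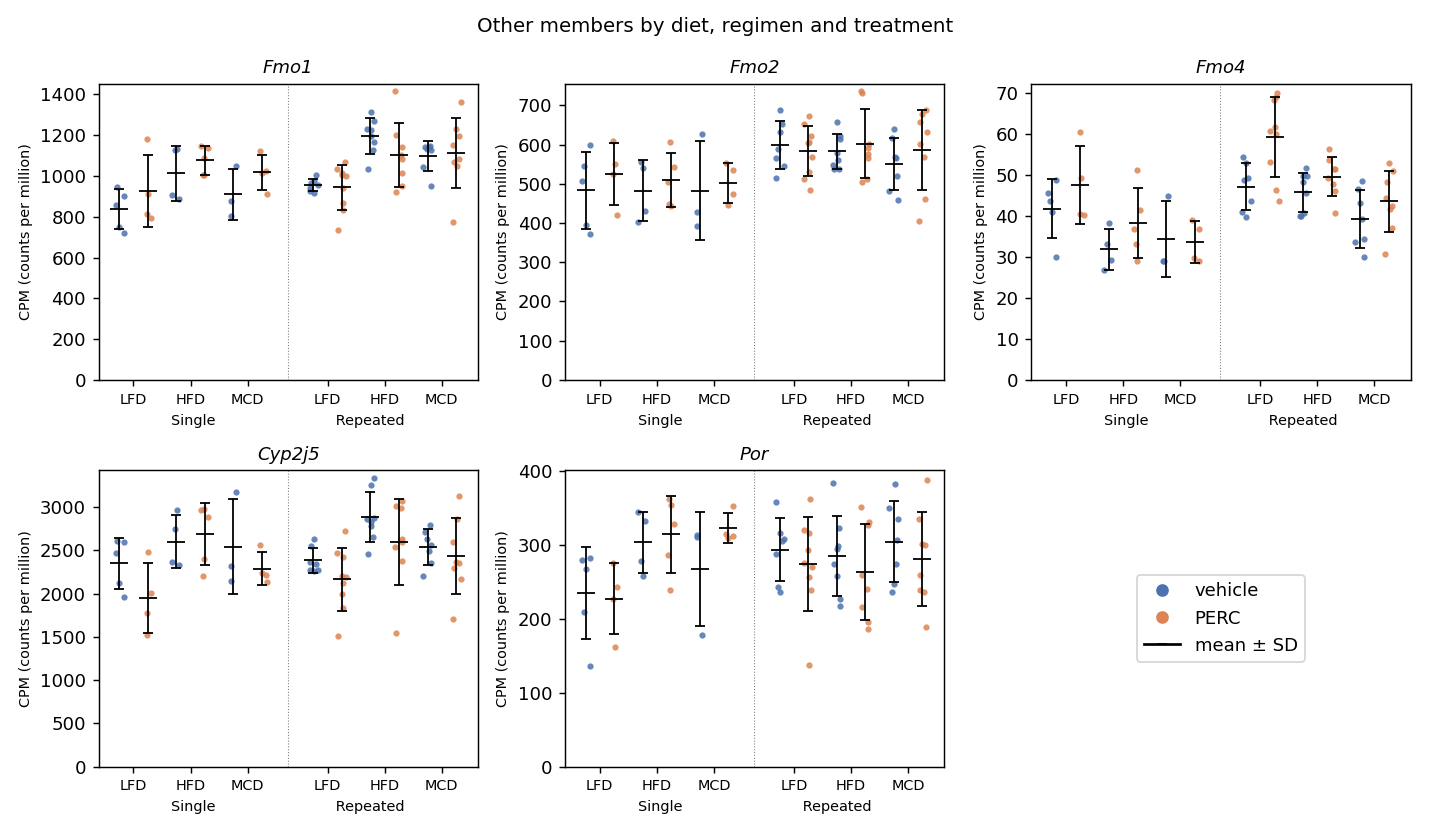
Levels in CPM (linear axes from 0) of Fmo1, Fmo2, Fmo4, Cyp2j5 and Por by diet, regimen and treatment; points are kidneys and black marks the mean and SD. HFD vehicle kidneys of the Repeated regimen sit at 1033 to 1315 CPM of Fmo1, above the LFD vehicle kidneys at 915 to 1003.

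Of the 2 electron carriers, Cyb5a fell with PERC and Por passed no test. On HFD after repeated dosing, Cyb5a ranged from 935 to 1154 CPM in vehicle kidneys (median 1040, n = 8) and from 626 to 895 with PERC (median 831, n = 8), without overlap. Cyb5a fell by 0.35 (log2, SE 0.08, adjusted p = 0.00382, edgeR), a call kept without any 1 of the 16 libraries. On MCD the ranges were 938 to 1104 (median 1033, n = 7) and 597 to 1054 CPM (median 815, n = 8), with only PERC replicate 4 inside the vehicle range. The fall was 0.32 (SE 0.09, adjusted p = 0.0196), with an adjusted p of 0.0606 without PERC replicate 7. On LFD the ranges of 814 to 1005 and 667 to 1041 CPM overlapped, and the log2 difference of -0.17 did not pass, nor did that of -0.18 without the library that stood apart (adjusted p = 0.179).

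As a mean over the diets Cyb5a fell by 0.28 (SE 0.05, adjusted p = 1.80e-05, edgeR) after repeated dosing, or by 0.29 (adjusted p = 1.68e-05) without the library that stood apart. With the adipocyte covariate the value was -0.32 (adjusted p = 1.84e-05). After 1 dose the mean over diets was -0.16 (adjusted p = 0.209, edgeR). On MCD the PERC kidneys at 845.0, 892.5, 756.1 and 820.6 CPM were all below the vehicle kidneys at 948.6, 920.1 and 1019. That difference of -0.23 did not pass (adjusted p = 0.959, edgeR), and on LFD and HFD the ranges overlapped. The share of all genes whose MCD groups separate in this way was not counted. With lane as a covariate the mean over diets passed (-0.17, adjusted p = 0.0476). Lane means of PERC minus vehicle were below 0 in 3 of 3 and 5 of 5 lanes (-0.18 to -0.13 and -0.39 to -0.12). Por ranged from 136.8 to 388.7 CPM, with coefficients of variation within groups of 6.30% to 28.9%. Its log2 differences were -0.12 to 0.26 over the 6 PERC comparisons and -0.04 to 0.37 over the 4 vehicle diet comparisons. Larger differences from LFD were seen among Single PERC mice, 0.47 on HFD (adjusted p = 0.228) and 0.50 on MCD (adjusted p = 0.284, edgeR). There the MCD kidneys, at 310.0 to 353.1 CPM, lay above the LFD kidneys at 162.1 to 275.9. The MCD kidney at 353.1 CPM lay far from the next, at 315.1. How many of all genes separate in this way was not counted. Among Repeated PERC mice the differences were -0.06 and 0.03. Lane means of HFD minus LFD, taken over vehicle and PERC mice together, were above 0 in 3 of 3 Single and 2 of 5 Repeated lanes.

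Whether the PERC effect itself differed between diets was tested directly. None of 8 members was called for HFD against LFD or MCD against LFD, in either regimen, in comparisons where 0% of genes (Single, both) and 0.0137% and 0% (Repeated) were called. For Fmo5 after repeated dosing, the effect on HFD minus that on LFD was -0.01 (SE 0.28) and the effect on MCD minus that on LFD was -0.06 (SE 0.28). For Cyb5a these were -0.18 (SE 0.12) and -0.15 (SE 0.12), and for Fmo4 -0.22 and -0.19 (SE 0.15 each). For Cyp2e1 they were -0.21 and -0.04 (SE 0.18 each). Without the LFD library that stood apart none of the 8 was called either, with Fmo5 at 0.09 and 0.04. The PERC effect after 5 doses minus that after 1 dose was called for none of the 8 on LFD, HFD or MCD, where 0.0132%, 0.132% and 0.0132% of genes were called. The largest for a member on HFD was that of Cyb5a at -0.31 (SE 0.13, adjusted p = 0.376). These standard errors leave room for differences as large as several of the effects, so a like effect across diets or regimens is not shown. Between regimens, the number of doses cannot be told apart from the time after the last dose (4 h and 24 h) or from lane.

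**Figure D4:**
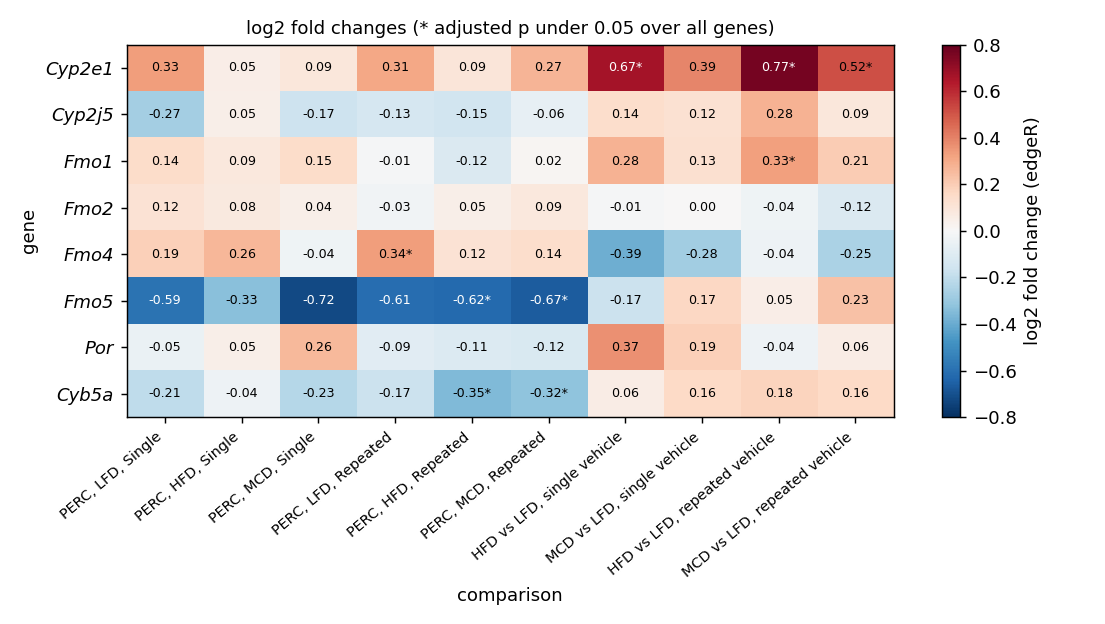
log2 fold changes of the 8 members (rows) in 6 PERC comparisons within diet and 4 diet comparisons among vehicle mice (columns), as colour and number, with an asterisk where the adjusted p over all genes was under 0.05. Fmo5 is below 0 in the 6 PERC columns, from -0.72 to -0.33, and Cyp2e1 is above 0 in the 4 diet columns, from 0.39 to 0.77.

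Across the 47 Repeated libraries, the member most like Fmo5 was Cyb5a, which among 15138 other genes had the highest Pearson correlation with it (r = 0.930, Spearman's rho = 0.903, both on log2 CPM). Without the 2 libraries farthest from the median of Fmo5, r was 0.904. After each group's mean was taken out, r was 0.911 and Cyb5a ranked 3, behind Lap3 (0.930) and Nudt19 (0.914). Cyp2j5 had r = 0.743 with Cyb5a and 0.674 with Fmo5 by level, and 0.802 and 0.736 with the group means taken out. These values describe points that share library, lane and composition, and 94 genes reached r of at least 0.8 with Fmo5. The other genes most like Fmo5 were C1qtnf3 (0.918) and Slc47a1 (0.917), an organic cation exporter of the proximal tubule. Slc47a1 was also the gene most like Cyb5a (0.933), followed by Fmo5 and Fhl1 (0.907), and by deviation Cyb5a was most like Fmo5, Lap3 (0.907) and Nudt19 (0.889).

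**Figure D5:**
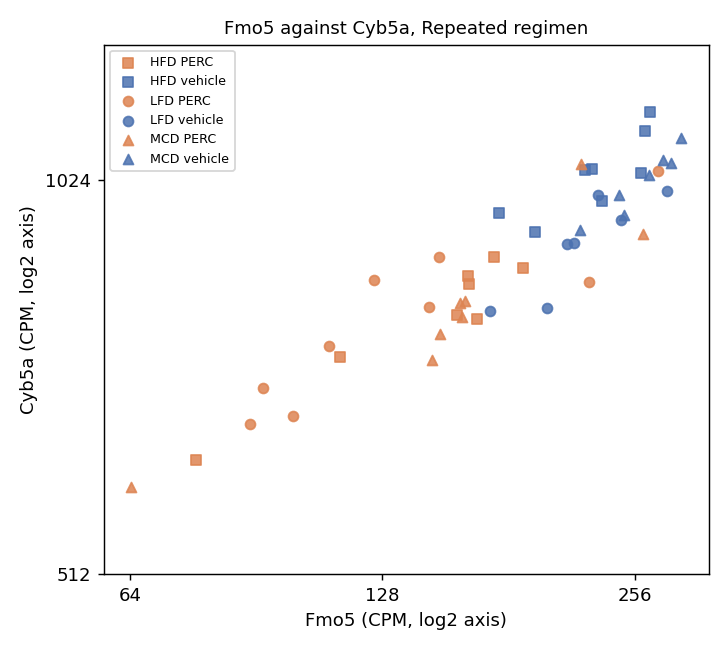
Cyb5a against Fmo5 in the 47 kidneys of the Repeated regimen, both in CPM on log2 axes, coloured by treatment and shaped by diet. The kidney with the least Fmo5 (64.2 CPM, MCD PERC) also has the least Cyb5a (596.8 CPM), and vehicle kidneys lie towards the upper right (r = 0.930).

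Cyp2e1 was most like Ephx2, a soluble epoxide hydrolase (r = 0.872), Mogat1, a monoacylglycerol acyltransferase (0.870), and Acot12, an acetyl-CoA thioesterase (0.868). By deviation from group means it was most like Glt1d1 (0.738), Etnppl (0.732) and Hsd17b11 (0.729). The genes most like the other members by level were Lypla1, Bcap31 and Ndufs1 for Cyp2j5 (0.922 to 0.934), 4833439L19Rik, Gk and Aco1 for Fmo1 (0.833 to 0.872), and Stag2, Sec62 and Acadsb for Fmo2 (0.727 to 0.743). They were Akap7, Ercc5 and Akr1c13 for Fmo4 (0.801 to 0.806) and Rapgef3, Slc25a10 and Hcfc1r1 for Por (0.930 to 0.934). By deviation they were Lypla1, Lactb2 and Rtn3 for Cyp2j5 (0.920 to 0.942), 4833439L19Rik, Pipox and Gk for Fmo1 (0.80 to 0.854), and Etfdh, Aldh6a1 and Acadsb for Fmo2 (0.781 to 0.807). By deviation they were Insr, Eif3e and Sp3 for Fmo4 (0.812 to 0.841) and Slc25a10, Syngr2 and Os9 for Por (0.947 to 0.952). Por ran opposite to Cyp2j5 among the deviations (r = -0.529), as did many other genes: it ranked 13042 of 15138 for likeness to Cyp2j5. Cyp2e1 and Fmo1, the 2 members called higher on HFD in vehicle mice, had r = 0.670 by level and 0.511 by deviation. Without the 2 libraries farthest from the median of Cyp2e1 these were 0.665 and 0.356. Among 15138 genes Fmo1 ranked 93 by level and 187 by deviation for likeness to Cyp2e1. Fmo1 was more like Cyp2j5, with r = 0.715 by level and 0.628 by deviation.

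Other genes of the same pathways moved in both directions. In the Repeated PERC mean over diets, of 24 tested P450s of families 1 to 3 outside the members, 3 were called higher and 3 lower, a share near the 24.5% of all genes, with a median of 0.03 beside 0.00 over all genes tested. Cyp2d22 rose by 0.83 (SE 0.14, adjusted p = 8.27e-06) and Cyp2d26 by 0.40, whereas Cyp2a4 fell by 0.28 and Cyp2f2 by 0.37. Of 20 other electron and heme partners 4 were higher and 2 lower (median 0.02), among them Cyb5r1, a cytochrome b5 reductase, which rose by 0.45 (SE 0.06, adjusted p = 5.44e-07), and Hmox1, heme oxygenase, which rose by 0.32. Fdx1, the ferredoxin of mitochondrial P450s, fell by 0.20, and Uros, an enzyme of heme synthesis, fell by 0.23. Of 17 regulators 4 were higher and 1 lower (median 0.08): Nr1i3, the receptor CAR, rose by 1.53 (SE 0.19, adjusted p = 4.22e-08), Nr1i2, the receptor PXR, rose by 0.33, and Cebpb rose by 0.56. Without the library that stood apart, a fit added after seeing the data, the called genes of these 3 lists, 6, 6 and 5, were all called in the same direction, and 1 further regulator, Ahr, was called higher (0.15, adjusted p = 0.0459).

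Of 12 genes known to be higher in the kidneys of male mice, 10 fell in that comparison (median -0.55), where 11.7% of all genes were called lower, among them Slc7a13, an amino acid transporter (-0.96), Odc1, ornithine decarboxylase (-0.59), Slc22a30 (-0.60) and Cyp4b1 (-0.50). The same 10 were called lower without the library that stood apart (median -0.56). Cyp2e1 and Cyp2j5, also known as male-enriched in mouse kidney, were not on that list, and their values in the comparison were 0.23 and -0.12. The list was chosen with earlier results of these data known, so its count is not independent of them. In the Repeated PERC mean over diets, 6 of 12 proximal tubule markers were also called lower and 1 higher. The part of these markers in the result was not tested. After 1 dose, as a mean over diets, Alas1, the first enzyme of heme synthesis, rose by 0.34, Cyp2d26 rose by 0.40, Cyp2j13 fell by 0.51 and Slc7a13 fell by 0.57, each the only 1 of its list called in its direction, where 0.938% of all genes were called higher and 0.427% lower.

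Of the other P450s called between diets, most were lower than on LFD, whereas Cyp2e1 was higher. In Repeated vehicle mice on HFD, 5 of 24 were lower and 1 higher than on LFD (median -0.13), where 2.78% of all genes were lower and 3.86% higher, with Cyp2d12 at -1.40 (SE 0.18, adjusted p = 7.63e-07), Cyp2c69 at -1.46, Cyp2c44 at -0.55 and Cyp2c68 at -2.13. On MCD 3 of 24 were lower and none higher (median -0.08), where 1.37% of all genes were lower: Cyp2d12 (-0.72), Cyp2c69 (-1.35) and Cyp2c68 (-2.17). In the Single regimen on HFD 3 of 23 were lower, Cyp2d12 (-1.54), Cyp2c68 (-3.42) and Cyp2a5 (-1.18), where 0.763% of all genes were lower, and on MCD none passed. Genes of the Cyp2a, Cyp2c, Cyp2d and Cyp2j clusters have near-identical copies, and reads without a unique position were not counted, so their levels are uncertain. Nr1i2 was lower on HFD (-0.78) and on MCD (-0.76) in Repeated vehicle mice, and on MCD in the Single regimen (-0.91). Of the male-enriched genes, Slco1a1, an organic anion transporter, was higher on HFD (2.15) and MCD (1.87) in Repeated vehicle mice, as was Odc1 (1.03 and 0.96). In the Single regimen Slco1a1 was higher on HFD (1.66) and MCD (1.53) and Odc1 on HFD (1.06). Slc22a30 was higher (0.74) on HFD, Spink8 lower on HFD (-0.34) and MCD (-0.47), Cpox higher on HFD (0.24) and Cebpa higher on MCD (0.44), all in Repeated vehicle mice.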

How the data were processed

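RNA-seq gene counts were used as the authors deposited them, 1 table per kidney, with reads outside genes listed separately. The submitters' processing notes name bcl2fastq 2.17.1.14, Trimmomatic, TopHat2 2.0.13, HTSeq, DESeq2 and GRCm38/mm10, with no role given; the annotation and strand setting are not given in the sources used here. A median of 53.1% of reads fell in genes, 22.9% in no gene and 21.7% had no unique position; the last 2 classes were not used. Libraries under 1000000 counts were left out. Groups come from the diet, treatment and dose labels; replicate numbers are names in accession order. edgeR 4.0.16 in R 4.3.3 fitted the Single (25 libraries, 14280 genes), the Repeated (47, 14614) and all libraries (72, 15139) with TMM scaling, filterByExpr and the robust quasi-likelihood test, with Benjamini-Hochberg adjustment over all genes and a threshold of 0.05. Each group had its own mean and covariates were none. SE is the log2 fold change over the root of F, and log2 CPM has a prior count of 2. All 8 members passed the filter in the 3 fits. The fits were tested on simulated data with the same dispersion for every gene and no lane effect, so these features of the real data were not covered. The members and lists were chosen with earlier results of these data known, and 6 of the 25 comparisons (MCD against HFD vehicle, and diets among PERC mice) were added after seeing the data. Named genes are all members, up to 4 genes of each list with the smallest p among those called, and the 3 most like each member; some genes this rule names are not reported here. The labels do not say that mice are separate litters or cages, so p-values measure the spread between these kidneys. Sequences are from RefSeq (GRCm38.p6), which matched 6 of 8 members. DESeq2 1.42.0, its size factors, no filter on low counts, lane, mean log2 adipocyte marker level, fits of the compared groups alone, low-depth libraries kept, and each library left out were alternatives.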

Additional observations from a re-analysis of the deposited data

Results flagged for a closer look

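Of 88 member and group pairs with 4 to 9 kidneys, 2 held a kidney far from the others, where chance alone gives about 1 in 20 such groups. Cyp2j5 was at 1549 CPM in HFD Repeated PERC replicate 6, against 2372 CPM in the nearest of the other 7 kidneys. The same kidney held 76.75 CPM of Fmo5 and 626.3 CPM of Cyb5a, the lowest of its group for both. Por was at 353.1 CPM in MCD Single PERC replicate 4, against 315.1 CPM in the nearest of the other 3.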

How the results depend on the processing

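No called member changed sign under any alternative or with any 1 library left out. Of 1272 member values under the alternatives, 11 lost a call and 14 gained one; of 3456 with 1 library left out, 38 lost and 12 gained one. The number of members called changed under these settings. With DESeq2 it went to 1 from 0 for PERC on LFD and on MCD in the Single regimen and for HFD against LFD among Single PERC mice, and to 2 from 1 for PERC on LFD in the Repeated regimen, as with its size factors, and to 3 from 2 for MCD against LFD among Repeated PERC mice. With lane as a covariate the same 4 counts became 1, 1, 1 and 2, the Single mean over diets had 2, and HFD against LFD in Repeated vehicle mice had 3 in place of 2. With the adipocyte covariate, counts fell to 0 for PERC on LFD (Repeated), for HFD against LFD in Single vehicle mice and for MCD against LFD in Repeated vehicle mice, to 1 for HFD against LFD in Repeated vehicle mice and to 3 from 4 for the Repeated mean over diets. Fitting the compared groups alone gave 0 for PERC on LFD and 1 on MCD (Repeated), 3 for HFD and 2 for MCD against LFD in Repeated vehicle mice, and 1 for MCD against LFD among Repeated PERC mice. Without a filter on low counts, PERC on HFD and on MCD (Repeated) had 1 each. With low-depth libraries kept, HFD against LFD in Single vehicle mice had 0. The cause was not tested. With 1 library left out, the count ran from 0 to 2 for PERC on LFD and on MCD and 1 to 2 on HFD (Repeated), 0 to 1 for PERC on LFD (Single), 0 to 1 for HFD against LFD in Single vehicle and Single PERC mice, 0 to 1 for MCD against LFD in Repeated vehicle mice, and 1 to 3 and 2 to 3 for HFD and MCD against LFD among Repeated PERC mice. Lane was not fitted where regimens were compared, since they share no lane. No paired analysis was possible because the labels give no replicate numbers. Groups of 3 to 5 in the Single regimen limit what it can show.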
